A study of Homo sapiens with 5 samples.

Results

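The WNT pathway was followed through 52 of its genes in HCC827 and HCC827/GR cells. They are ligands, the proteins that secrete them, receptors, inhibitors, cytoplasmic transducers and the TCF/LEF transcription factors, and they were picked by gene symbol, with earlier results of these data known. Of the 37181 entries in the deposited table, 45 carried a member's symbol. HCC827 is a lung adenocarcinoma cell line with a deletion in exon 19 of EGFR, which both groups carry, and it is sensitive to the EGFR inhibitor gefitinib. HCC827/GR cells were derived from it by stepwise gefitinib dosing for more than 6 months. The libraries were HCC827/GR replicates 1, 2 and 3 and HCC827 replicates 2 and 3, and nothing in the sources used here says whether they came from separate cultures or whether HCC827/GR is 1 clone, so p-values measure the spread between these libraries. The question was how the WNT pathway differed between resistant and parental cells.

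WNT proteins are secreted lipid-modified ligands. Binding to a Frizzled receptor and an LRP co-receptor stops the destruction complex from degrading β-catenin, which then acts with TCF/LEF factors on target genes, while other Frizzled, ROR and RYK signals do not use β-catenin. In the lung the pathway is known for its part in branching, in alveolar stem cells and in adenocarcinoma.

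In resistant cells the ligand WNT9A fell from a mean of 5.91 to 0.244 FPKM (sequenced fragments scaled for transcript length and library size). The receptor FZD2 and the receptor-removing ubiquitin ligase ZNRF3 were higher, and the co-receptor LRP5 and the transcription factor TCF7L2 were lower. CTNNB1, which encodes β-catenin, had 45.4 ± 1.64 FPKM (SD, n = 3) in HCC827/GR and 46.2 ± 1.19 (SD, n = 2) in HCC827 cells. A mean of at least 0.5 FPKM was reached by 26 members, which were tested with limma on log2(FPKM + 1) together with all 16189 entries above that mean. After Benjamini-Hochberg adjustment over all of them, 5 members had an adjusted p under 0.05, 2 higher and 3 lower in HCC827/GR. Of all entries tested, 11.0% were called, 5.26% higher and 5.71% lower, against 7.69% and 11.5% of the 26 members. The median log2 fold change of these members was -0.02 and that of all entries 0.00, and 12 members lay above 0 and 14 below, where 50.2% of all entries lay above 0. An unadjusted p under 0.05 was reached by 10 members, 5 in each direction, out of 26, against 27.2% of all entries tested.

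Most of these calls rested on the full set of libraries. With limma, 1 member was called without HCC827/GR replicate 1, 1 without HCC827/GR replicate 2 and 2 without HCC827/GR replicate 3. Calls fell over all entries too, to 3.02%, 4.8% and 5.94% in these fits, from 11.0% with all libraries. WNT9A was called in each of these fits. The groups did not overlap in 11 of the 26 members, or 42.3%, against 46.3% of all entries tested. Of these members 5 were higher and 6 lower in HCC827/GR, where the background was 22.8% and 23.4%. For a single gene, an exact permutation test of 3 libraries against 2 cannot go below p = 0.2 (two-sided, the smaller tail doubled).

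**Figure D1:**
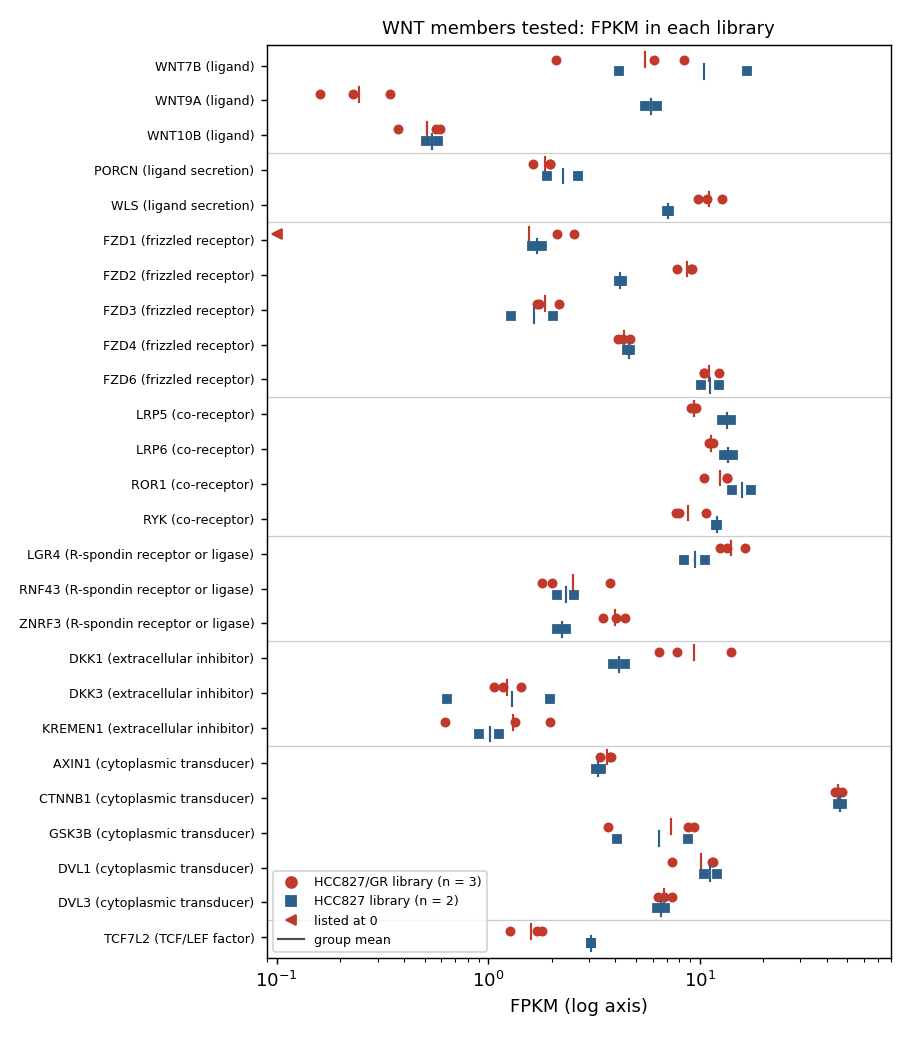
FPKM on a log axis of the 26 members tested, ordered by role, with 1 point per library, a tick at each group mean and a triangle at the left edge for FZD1 in HCC827/GR replicate 1, listed at 0. WNT9A is the member whose groups stand farthest apart, at 0.160 to 0.342 FPKM in HCC827/GR and 5.52 to 6.30 in HCC827, and the CTNNB1 points of both groups lie on each other.

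Facts of the whole series that touch these values are few. FPKM carries no read counts, which leaves library depth unknown, and between 8896 and 9803 entries were listed at 0 in a library. The correlation of log2(FPKM + 1) across the entries tested was 0.913 to 0.927 between libraries of the same cells and 0.851 to 0.873 between libraries of different cells. The epithelial identity of HCC827 was visible in its markers, and 10 of the 12 on the list had an entry. Their summed level was 1145 to 1251 FPKM in HCC827 and 470.2 to 609.9 in HCC827/GR libraries. All 9 tested had a negative log2 fold change, where 50.2% of all entries tested lay above 0. By limma 6 were called lower, where 5.71% of all entries were. KRT18 lost this call without HCC827/GR replicate 1, 2 or 3, and KRT19 without HCC827/GR replicate 1 (limma adjusted p = 0.0518). Among the 6 was EPCAM, a surface glycoprotein of epithelia (log2 fold change -3.04, adjusted p = 0.00349 from limma). MUC1 and NKX2-1 were also among the 6, but the MUC1 entry joins transcripts of KRTCAP2 and the NKX2-1 entry those of SFTA3. The summed level of 8 fibroblast markers was 2.72 to 3.07 FPKM in HCC827/GR and 3.34 to 3.45 in HCC827. Of the 8, 2 reached the minimum mean, with log2 fold changes of -0.26 and 0.13, and were not called by limma. DCN was at most at 0.0259 and THY1 at most at 0.0157 FPKM, so most of the fibroblast sum came from other markers of that list. The PDGFRA entry also joins transcripts of FIP1L1. The 5 leukocyte markers with an entry summed to 0.498 to 0.641 FPKM in HCC827/GR and 0.971 to 0.983 in HCC827. PTPRC, their defining gene, was at most at 0.0228 FPKM, so most of the leukocyte sum came from other markers of that list. The 5 endothelial markers summed to 0.0672 to 0.108 FPKM in HCC827/GR and 3.42 and 4.44 in HCC827. Most of that was PECAM1, an adhesion molecule, with 4.34 and 3.32 FPKM in HCC827 and a listed 0 in each resistant library, and the entry used, 1 of 10 under this symbol, is an assembled transcript with no Ensembl transcript in it. CDH5 was at most at 0.0749 and TEK at most at 0.0397 FPKM. In bulk RNA, fewer cells of a type and less RNA per cell cannot be told apart, and the part of the epithelial markers and of the PECAM1 entry in the results below was not tested.

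Promoters are shown for the ligand and the co-receptor that were lower and for DKK1, an inhibitor that β-catenin is known to induce. They are the 250 bases before the RefSeq start site on GRCh38.p14. WNT9A lies on the minus strand at chr1:227947933-227948182, LRP5 on the plus strand at chr11:68312341-68312590 and DKK1 on the plus strand at chr10:52314031-52314280. Capitals mark GGGCGG or its reverse complement, the core of the GC box, and CTTTGAA, a form of the TCF/LEF motif.
WNT9A: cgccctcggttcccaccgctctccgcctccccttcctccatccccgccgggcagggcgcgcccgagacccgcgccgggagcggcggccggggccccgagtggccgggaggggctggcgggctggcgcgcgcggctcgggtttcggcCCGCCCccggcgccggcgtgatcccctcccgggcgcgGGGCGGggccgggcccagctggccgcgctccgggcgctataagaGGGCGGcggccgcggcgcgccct
LRP5: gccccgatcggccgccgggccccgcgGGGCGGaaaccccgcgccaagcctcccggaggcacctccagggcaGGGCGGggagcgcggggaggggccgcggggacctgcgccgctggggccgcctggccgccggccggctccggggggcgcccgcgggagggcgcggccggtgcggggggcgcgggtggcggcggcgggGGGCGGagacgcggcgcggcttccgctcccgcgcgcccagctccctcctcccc
DKK1: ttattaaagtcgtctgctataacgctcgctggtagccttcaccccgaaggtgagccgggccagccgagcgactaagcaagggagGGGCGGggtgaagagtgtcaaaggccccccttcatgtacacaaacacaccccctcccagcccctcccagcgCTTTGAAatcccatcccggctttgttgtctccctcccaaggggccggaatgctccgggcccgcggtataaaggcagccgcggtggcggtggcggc
The windows of WNT9A and LRP5 were 84.4% and 87.2% G or C, and each held 3 GC boxes. In DKK1, of which 62.8% was G or C, CTTTGAA began 95 bases before the start site, and 1 GC box lay farther from the start. Windows from 250 bases before to 50 after the start were at hand for 36 members, 47 windows in all. On both strands, CTTTGAT was found in 0 of the 47, CTTTGAA in 1 and GGGCGG in 31. Among the 35093 windows of all genes these shares were 2.62%, 4.43% and 44.9%. A match is a run of letters and not a measured binding site.

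Among the 11 WNT ligands, 3 passed the minimum mean. WNT9A, on chromosome 1 of GRCh38 from 227918656 to 227947898, stood at 0.230, 0.342 and 0.160 FPKM in the resistant replicates 1, 2 and 3, and at 5.52 and 6.30 in parental replicates 2 and 3. Every HCC827/GR library was far below both parental ones. The log2 fold change was -2.47 ± 0.12 (SE, adjusted p = 0.00239), and the ratio of the mean FPKM was 24.2 in favour of HCC827. By size of the fall WNT9A ranked 60 among the 643 entries that passed the study's thresholds downward in the limma fit. Downward these thresholds were a fold change up to 0.5 and an unadjusted p under 0.05. The 643 are not the study's own list, which came from Ballgown. WNT9A was the 1 member among the 643. In the limma fit the thresholds were met by 2.96% of all entries upward and 3.97% downward. No member passed them upward in the limma fit, although 5 had an unadjusted p under 0.05 with a positive change. A pseudocount of 0.1, or the ratio of mean FPKM as fold change, put FZD2 and DKK1 past them, and leaving out HCC827/GR replicate 2 put DKK1 past them.

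WNT7B, a β-catenin-activating ligand of the lung epithelium, was the most abundant member ligand. Its values were 8.42, 6.11 and 2.10 FPKM in HCC827/GR and 4.14 and 16.8 in HCC827 libraries. The groups overlapped, the parental libraries differing from each other more than the group means did, and the log2 fold change was -0.69 ± 0.72 (SE, adjusted p = 0.603). Without HCC827 replicate 3 it was 0.20. WNT10B had 0.374 to 0.592 FPKM in HCC827/GR and 0.506 and 0.577 in HCC827.

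As a share of the summed FPKM of the 11 ligands, WNT9A took 50.4% and 25.5% in the HCC827 libraries and 2.27%, 4.23% and 3.88% in the HCC827/GR libraries. WNT7B took between 50.9% and 83.2% in HCC827/GR and 37.8% and 67.9% in HCC827. The ligand sum itself was 10.1, 8.09 and 4.13 FPKM in HCC827/GR and 10.97 and 24.7 in HCC827 libraries. Every resistant library thus lay below both parental ones, as was the case in either direction for 46.3% of single entries tested. WNT9A is part of this sum, which was not computed without it, and the groups of WNT7B overlapped.

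The remaining 8 ligands were below the minimum mean and are given as levels. WNT5A, the typical ligand of β-catenin-independent signalling, had 0.186, 0.311 and 0.254 FPKM in HCC827/GR and 0.0277 and 0.0482 in HCC827. WNT4 had 0.409 to 0.630 FPKM in HCC827/GR and 0.229 and 0.263 in HCC827, and WNT11, also β-catenin-independent in many settings, 0.115 to 0.140 FPKM against 0 and 0.0350. WNT7A went the other way, listed at 0 in HCC827/GR replicates 2 and 3 and at 0.0169 FPKM in replicate 1, against 0.232 and 0.504 FPKM in HCC827. WNT10A had 0.164 to 0.215 FPKM in HCC827/GR and 0.244 and 0.273 in HCC827. In these 5 ligands the groups did not overlap. The share without overlap was 46.3% of the entries tested, all above the minimum mean, and was not computed for entries below it. WNT3A, WNT5B and WNT6 reached at most 0.065 FPKM, with both HCC827 libraries listed at 0.

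**Figure D2:**
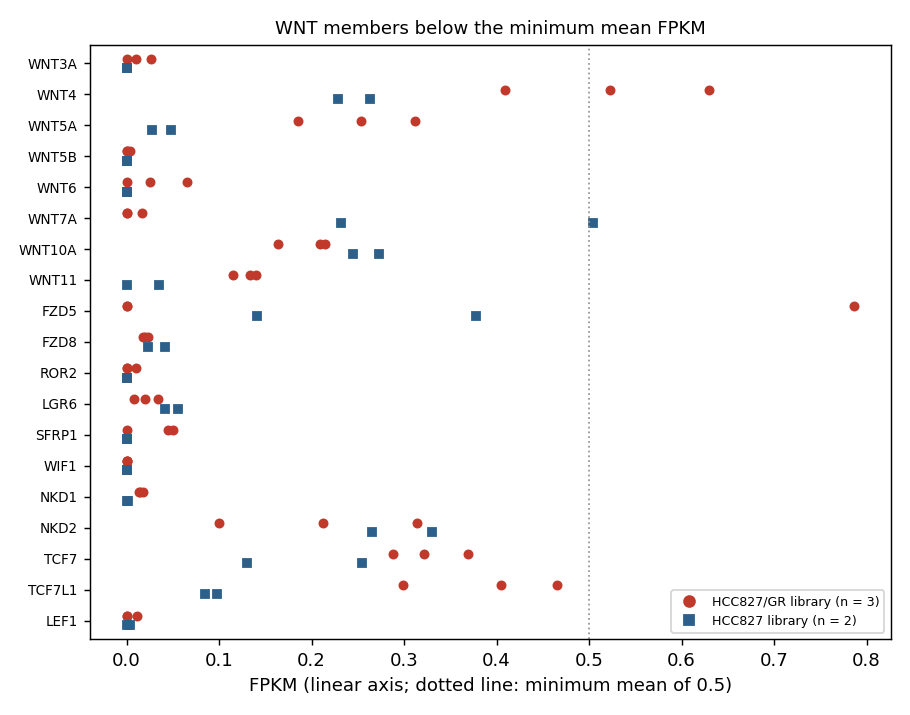
FPKM on a linear axis of the 19 members with an entry whose mean was below 0.5 FPKM, 1 point per library. WNT5A, WNT4, WNT11 and TCF7L1 lie higher in HCC827/GR and WNT7A lower, all at levels under 0.7 FPKM, and WIF1 is listed at 0 throughout.

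Of the proteins that release WNT ligands, WLS carries them to the cell surface and PORCN attaches their lipid. WLS had 9.83, 12.8 and 10.8 FPKM in HCC827/GR and 6.99 and 7.19 in HCC827. All resistant libraries were above the parental ones, but with a log2 fold change of 0.58 ± 0.13 (SE) the adjusted p was 0.0612. PORCN had 1.64 to 1.95 FPKM in HCC827/GR and 1.89 and 2.65 in HCC827.

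Frizzled proteins are the seven-pass receptors that bind WNT ligands. FZD2, on chromosome 17 from 44557459 to 44559570, had 9.21, 9.14 and 7.83 FPKM in HCC827/GR and 4.28 and 4.17 in HCC827. The groups were well apart, with a log2 fold change of 0.89 ± 0.11 (SE, adjusted p = 0.0140) and a ratio of mean FPKM of 2.07. The adjusted p passed 0.05 without HCC827/GR replicate 1 (0.0598) or 2 (0.0544) and without HCC827 replicate 2 (0.0769) or 3 (0.0734). Its entry is a transcript that the authors assembled and named FZD2, with no Ensembl transcript in it.

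FZD6, which often restrains β-catenin signalling, was the most abundant Frizzled and had 10.5, 12.3 and 10.5 FPKM in HCC827/GR and 12.3 and 10.2 in HCC827, a log2 fold change of -0.02 ± 0.13 (SE, adjusted p = 0.955). FZD4 stayed between 4.10 and 4.70 FPKM and FZD3 between 1.28 and 2.16 FPKM in the 5 libraries. FZD1, a gene with 1 exon, was listed at 0 in HCC827/GR replicate 1 and had 1.60 to 2.54 FPKM in the other libraries. FZD5 was listed at 0 in HCC827/GR replicates 2 and 3 and had 0.141 to 0.787 FPKM elsewhere, and FZD8 did not reach 0.05 FPKM. Of the Frizzled FPKM, FZD2 took 34.7%, 29.6% and 29.8% in HCC827/GR and 16.98% and 18.7% in HCC827 libraries. The share of FZD6 was 39.5% to 39.97% in HCC827/GR and 49.0% and 45.6% in HCC827.

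**Figure D3:**
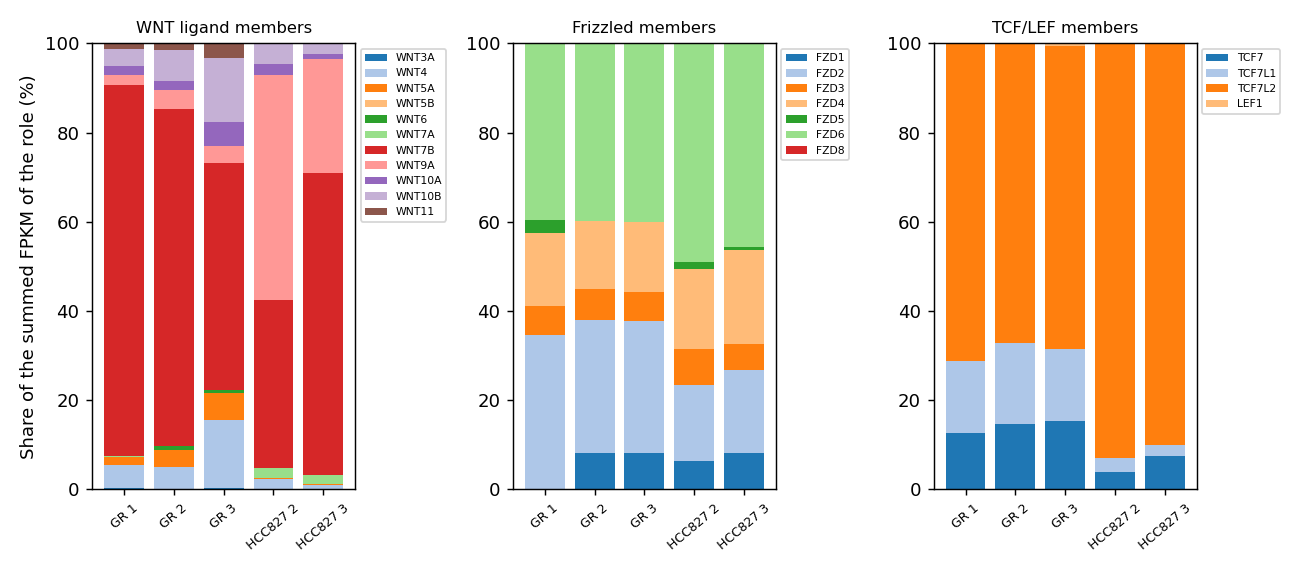
Stacked shares in % of the summed FPKM of the ligand, Frizzled and TCF/LEF members in each library (HCC827/GR libraries are marked GR). WNT9A shrinks from 25.5% or more of the ligands in HCC827 to 4.23% or less, FZD2 takes 29.6% or more of the Frizzled sum in HCC827/GR, and TCF7L2 falls to 71.3% or less of the TCF/LEF sum.

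Of the 4 co-receptors tested, 1 was called, and it was lower. LRP5, which with LRP6 carries the β-catenin branch into the cell, had 9.14, 9.58 and 9.41 FPKM in HCC827/GR and 14.2 and 12.7 in HCC827. The resistant libraries lay close together below both parental ones, and the log2 fold change was -0.48 ± 0.092 (SE, adjusted p = 0.0415). This call was lost without any 1 library, the adjusted p being 0.129, 0.108 and 0.101 without HCC827/GR replicate 1, 2 and 3 and 0.122 and 0.0762 without HCC827 replicate 2 and 3. LRP6 had 11.1 to 11.5 FPKM in HCC827/GR and 13.0 and 14.4 in HCC827, with an adjusted p of 0.155.

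ROR1, a receptor tyrosine kinase for WNT5A, was the most abundant co-receptor, with 13.5, 10.5 and 13.5 FPKM in HCC827/GR and 14.3 and 17.6 in HCC827. Its log2 fold change was -0.32 ± 0.16 (SE, adjusted p = 0.279). The groups of RYK, a kinase-dead WNT receptor, did not overlap either, at 7.71, 10.7 and 8.03 against 12.05 and 12.02 FPKM, with an adjusted p of 0.174. ROR2 reached 0.0106 FPKM in 1 HCC827/GR library and was listed at 0 in the others.

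ZNRF3 and RNF43 are membrane ubiquitin ligases that remove Frizzled receptors, and R-spondins bound to LGR receptors switch them off. ZNRF3, on chromosome 22 from 28883592 to 29057487, had 4.005, 4.45 and 3.49 FPKM in HCC827/GR and 2.13 and 2.33 in HCC827. All resistant libraries were above both parental ones, with a log2 fold change of 0.62 ± 0.12 (SE, adjusted p = 0.0409). Without HCC827/GR replicate 1, 2 or 3 the adjusted p was 0.126, 0.102 or 0.0588, and 0.168 or 0.128 when HCC827 replicate 2 or 3 was left out. LGR4 had 13.5, 16.4 and 12.4 FPKM in HCC827/GR and 10.6 and 8.48 in HCC827, also without overlap, but its log2 fold change of 0.52 ± 0.16 (SE) had an adjusted p of 0.128. The entry of RNF43, with 1.79 to 3.79 FPKM, joins transcripts of RNF43 and its neighbour SUPT4H1, so its value cannot be assigned to either. It stayed in the counts of the 26 members tested. LGR6 did not reach 0.06 FPKM.

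Among the extracellular inhibitors, DKK1 blocks LRP5 and LRP6. It had 7.81, 6.46 and 14.1 FPKM in HCC827/GR and 4.44 and 3.88 in HCC827. Each resistant library was above each parental one, the ratio of mean FPKM was 2.27, and the spread among the resistant libraries was wide. Its log2 fold change of 0.95 ± 0.33 (SE) had an adjusted p of 0.149, and over the alternatives the adjusted p ran from 0.0939 to 0.607. KREMEN1, the receptor with which DKK1 removes LRP6, had 0.624 to 1.97 FPKM in HCC827/GR and 0.909 and 1.12 in HCC827. DKK3 had 1.07 to 1.43 FPKM in HCC827/GR and 0.640 and 1.96 in HCC827. The secreted decoys were hardly detected, SFRP1 at most at 0.0504 FPKM and WIF1 listed at 0 in all 5 libraries.

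**Figure D4:**
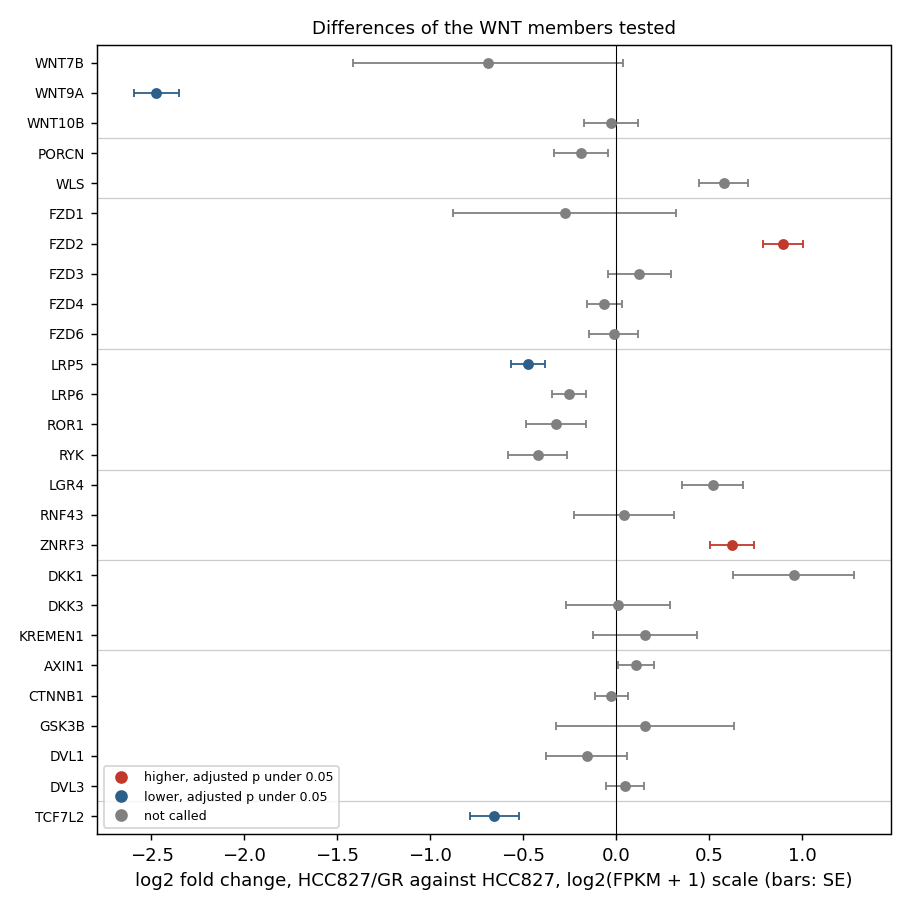
Difference in log2(FPKM + 1), HCC827/GR minus HCC827, with its standard error for the 26 members tested, grouped by role. FZD2 (0.89) and ZNRF3 (0.62) were called higher and WNT9A (-2.47), LRP5 (-0.48) and TCF7L2 (-0.66) lower, while DKK1 (0.95) and WNT7B (-0.69) have wide errors.

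None of the 5 cytoplasmic transducers tested was called in the limma fit, their log2 fold changes running from -0.16 to 0.15. CTNNB1, the most abundant member, had 45.1, 43.8 and 47.1 FPKM in HCC827/GR and 47.1 and 45.4 in HCC827, a log2 fold change of -0.03 ± 0.088 (SE, adjusted p = 0.882). AXIN1, the scaffold of the destruction complex, had 3.36 to 3.82 against 3.24 and 3.41 FPKM, and the Dishevelled gene DVL3 6.34 to 7.38 against 6.29 and 6.84 FPKM. GSK3B, the kinase that marks β-catenin for degradation, varied within both groups, with 3.68, 9.41 and 8.85 FPKM in HCC827/GR and 4.07 and 8.80 in HCC827. DVL1 had 7.41 to 11.6 FPKM in HCC827/GR and 10.5 and 12.05 in HCC827. NKD1, a Dishevelled-binding feedback inhibitor, had 0.0131 to 0.0183 FPKM in HCC827/GR and was at 0.00107 FPKM and at 0 in HCC827, and NKD2 had at most 0.330 FPKM.

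AXIN2, APC and DVL2 had no entry of their own. Transcripts of AXIN2, the standard readout of β-catenin signalling, were joined with those of CEP112 in the authors' assembly, those of DVL2 with those of PHF23, and those of the tumour suppressor APC with those of SRP19 and ZRSR2P1. These joined values were not read as values of the members. FZD7, FZD10, LGR5 and SFRP2 were not analysed here.

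TCF/LEF factors bring β-catenin to DNA. TCF7L2, on chromosome 10 from 112950250 to 113167678, had 1.80, 1.70 and 1.27 FPKM in HCC827/GR and 3.05 and 3.08 in HCC827. The groups were apart, with a ratio of mean FPKM of 1.93 in favour of HCC827, a log2 fold change of -0.66 ± 0.13 (SE) and an adjusted p of 0.0434. Without HCC827/GR replicate 1, 2 or 3 the adjusted p was 0.0933, 0.105 or 0.0688, and 0.167 or 0.159 when HCC827 replicate 2 or 3 was left out.

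The other TCF/LEF members were below the minimum mean. TCF7L1, mostly a repressor, had 0.405, 0.465 and 0.299 FPKM in HCC827/GR and 0.0978 and 0.0846 in HCC827, and TCF7, itself a target of the pathway, had 0.288 to 0.369 against 0.130 and 0.254 FPKM. Both lay higher in every HCC827/GR library than in either parental one. LEF1, another target, reached 0.0115 FPKM in HCC827/GR replicate 3 and 0.00392 in HCC827 replicate 3 and was listed at 0 elsewhere. TCF7L2 made up 71.3%, 67.1% and 67.9% of the TCF/LEF sum in HCC827/GR and 93.0% and 90.0% in HCC827 libraries. TCF7L1 made up 16.0% to 18.4% in HCC827/GR and 2.98% and 2.47% in HCC827.

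When limma was run without the minimum mean, 18 of the 19 low members could be fitted. Of these 0 had an adjusted p under 0.05, where 3.5% of all 36011 entries fitted did. An unadjusted p under 0.05 was reached by 4 of the 18, where 6559 of the 36011 entries reached it. The limma adjusted p values of the 4 were 0.106 for WNT5A, 0.0983 for WNT7A, 0.0747 for WNT11 and 0.131 for TCF7L1.

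The rest of the pathway was taken from 5 lists of 127 genes, of which 73 were tested. Adjusted p was under 0.05 for 15, or 20.5%, of which 10 were called higher and 5 lower, against 11.0% of all entries tested, 5.26% higher and 5.71% lower. The lists were chosen with results of these data known, and they hold TNFRSF19, a gene the study itself centres on, so their counts are a description. Most of these calls also depended on the full set of libraries. The higher calls numbered 4, 6 and 5 without HCC827/GR replicate 1, 2 and 3, and the lower calls 1, 3 and 2. In these fits 3.02%, 4.8% and 5.94% of all entries were called, so calls fell over all entries too. TLE1, TNFRSF19, BMP4 and SHISA2 were called in every one of these fits. TNKS, TLE3, TLE4, TLE5, RHOV, JUN and TIAM1 were called in none of them, with limma adjusted p values up to 0.117.

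Among 8 other extracellular and membrane regulators tested, 4 had a positive and 4 a negative log2 fold change, and the 2 called at an adjusted p under 0.05 were higher, where 5.26% of all entries were. SHISA2, which holds back Frizzled maturation, had 8.66, 14.96 and 23.1 FPKM in HCC827/GR and 0.231 and 0.161 in HCC827. Its log2 fold change was 3.70 ± 0.40 (SE, adjusted p = 0.0115), and the adjusted p was 0.0824 without HCC827 replicate 2 and 0.0781 without HCC827 replicate 3. GPC4, a heparan sulphate proteoglycan that binds WNT ligands, had 2.72, 4.29 and 2.19 FPKM in HCC827/GR and 0.0615 and 0.0313 in HCC827. Its log2 fold change was 1.93 (adjusted p = 0.0153), with 0.0622 without HCC827/GR replicate 1 and 0.0974 and 0.0926 without HCC827 replicate 2 and 3. Both genes were far apart between the groups. Of the other ligands and R-spondins, 2 were tested, and WNT3, a β-catenin-activating ligand, had 2.13 to 2.36 FPKM in HCC827/GR and 3.21 and 3.60 in HCC827 (adjusted p = 0.0566).

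Of 26 destruction complex and nuclear partners tested, 14 had a positive and 12 a negative log2 fold change, and 4 were called higher and 1 lower, where 5.26% and 5.71% of all entries were. Of the called genes 4 belong to the Groucho family, whose full-length members are co-repressors that occupy TCF/LEF factors in the absence of β-catenin. TLE1 had 18.0, 19.1 and 18.6 FPKM in HCC827/GR and 8.76 and 9.51 in HCC827, a log2 fold change of 0.95 ± 0.0885 (SE, adjusted p = 0.00915). TLE4 had 0.674 to 1.003 FPKM against 0.0204 and 0.0491 (adjusted p = 0.0369), and TLE5, a short member listed in the table as AES, 6.55 to 8.76 FPKM against 3.67 and 4.16 (adjusted p = 0.0353). TLE3 went down, from 1.92 and 2.38 FPKM in HCC827 to 0.937 to 1.08 in HCC827/GR (log2 fold change -0.63, adjusted p = 0.0391). TLE2, of the same family, was below the minimum mean, with 0.0364 to 0.155 FPKM in HCC827/GR and 0.656 and 0.379 in HCC827. The remaining called gene was TNKS, a tankyrase that promotes the degradation of AXIN proteins, with 4.597 to 5.14 FPKM against 2.50 and 2.93 (log2 fold change 0.66, adjusted p = 0.0262). TLE3, TLE4, TLE5 and TNKS lost their call whichever library was left out.

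In the planar cell polarity branch, 16 genes were tested, 7 with a positive and 9 with a negative log2 fold change, and 1 was called higher and 1 lower, beside 11.0% of all entries called. The called genes were RHOU, which is known to be induced by WNT1, and RHOV. RHOU had 2.51, 3.22 and 2.47 FPKM in HCC827/GR and 0.662 and 0.510 in HCC827 (log2 fold change 1.23, adjusted p = 0.0120), and the adjusted p passed 0.05 without HCC827/GR replicate 1 (0.0518) and without HCC827 replicate 2 (0.0667) or 3 (0.0708). RHOV had 0.150 to 0.539 FPKM against 1.61 and 1.71 (log2 fold change -0.95, adjusted p = 0.0380).

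Of 21 target genes of β-catenin tested, 13 had a positive and 8 a negative log2 fold change, and 3 were called higher and 3 lower, where 5.26% and 5.71% of all entries were. TNFRSF19, which encodes TROY and is a target in several tissues, had 5.43 to 6.08 FPKM in HCC827/GR and 0.232 and 0.298 in HCC827 (log2 fold change 2.40, adjusted p = 0.00176). CLDN1, a tight junction claudin, had 19.6, 32.0 and 28.8 FPKM against 6.85 and 6.09 (log2 fold change 1.87, adjusted p = 0.0146), and JUN, an AP-1 transcription factor, 29.4, 31.2 and 35.0 against 12.6 and 15.95 (log2 fold change 1.11, adjusted p = 0.0164). Lower were BMP4, a growth factor, with 1.79 to 2.22 FPKM against 8.57 and 11.3 (log2 fold change -1.87, adjusted p = 0.00622), EPHB3, an Ephrin receptor, with 0.128 to 0.161 against 1.49 and 1.73 (log2 fold change -1.19, adjusted p = 0.0118), and TIAM1, a Rac activator, with 1.56 to 1.71 against 3.40 and 4.37 (log2 fold change -0.89, adjusted p = 0.0195).

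Several of these target calls were lost when a library was left out. Calls fell over all entries too, to 3.02% to 5.94% without an HCC827/GR library, from 11.0% with all libraries. For CLDN1 the adjusted p was 0.0540 without HCC827/GR replicate 3 and 0.0885 and 0.0921 without HCC827 replicate 2 and 3, and for EPHB3 it was 0.0508 without HCC827/GR replicate 1. For JUN it was 0.0573, 0.0606 and 0.0509 without HCC827/GR replicate 1, 2 and 3 and 0.0712 without HCC827 replicate 2. For TIAM1 it was 0.0764, 0.0635 and 0.0625 without HCC827/GR replicate 1, 2 and 3 and 0.0695 without HCC827 replicate 3. The median log2 fold change of the 21 target genes was 0.16, and that of all entries 0.00.

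**Figure D5:**
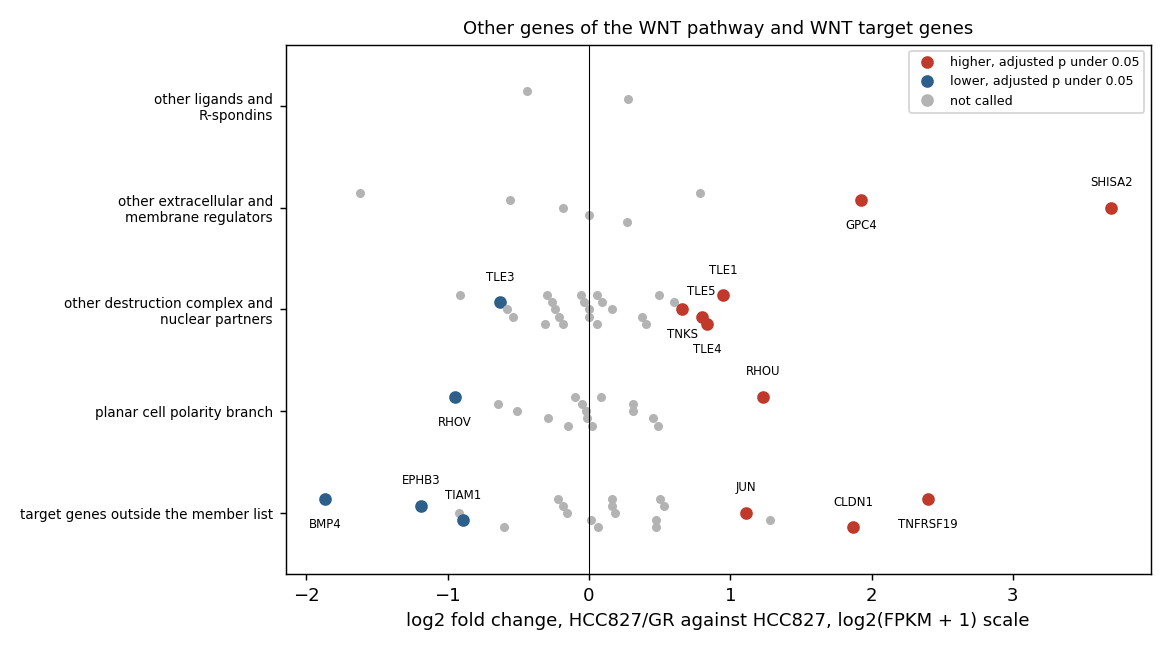
Log2 fold change on the log2(FPKM + 1) scale of the 73 genes tested from 5 further lists, 1 point per gene, spread vertically within a list for legibility. The 10 genes called higher reach from TNKS (0.66) to SHISA2 (3.70) and the 5 called lower from TLE3 (-0.63) to BMP4 (-1.87), and target genes lie on both sides of 0.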

How the data were processed

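RNA of HCC827/GR (3 libraries) and HCC827 cells (2 libraries) was sequenced. The authors trimmed reads with Cutadapt, checked them with FastQC, mapped them with Bowtie2 and TopHat2, assembled with StringTie, and deposited 1 FPKM value per gene or assembled locus and library, estimated with StringTie, and used Ballgown for their own comparison. The submitters' processing notes name hg18, versions are not given in the sources used here, and the labels describe a small-RNA library where the paper describes an mRNA library. Because FPKM carries no counts, depth is unknown and no count model was used. Of the deposited columns, 1 FPKM column matched no sample and was not used. Its header, GS_1, has the prefix of the HCC827 columns.

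Where a symbol had several entries, that of highest mean FPKM stood for it. Entries were matched to GENCODE release 29 (GRCh38) through 135164 of 135299 Ensembl transcripts, which gave positions and joined genes. HCC827/GR and HCC827 were compared by limma's moderated test (version 3.58.1, R 4.3.3, trended prior, both sides) of log2(FPKM + 1) in the 16189 entries whose mean reached 0.5 FPKM, with Benjamini-Hochberg adjustment over all of them. Fold changes on this scale understate those of low genes. The study's thresholds were fold changes from 2 upward or from 0.5 downward with p under 0.05. The limma step was tested on simulated data. Of 200 entries given a change, 119 were called and 199 had the right sign, and 8 unchanged entries were called. An entry that differs can thus go uncalled. Python 3.11.15 with pandas 2.3.3, scipy 1.17.1, matplotlib 3.10.9 and numpy 2.4.6 served for the remaining steps. Promoters came from RefSeq (GRCh38.p14).

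Values in every library were given for members with an adjusted p under 0.05 or past the study's thresholds and for the most abundant member of each role. CTNNB1, AXIN2 and LEF1 were named whatever their values, and from each other list up to 6 called genes. The members and lists were chosen with earlier results of these data known. As alternatives, entries of a symbol were summed, libraries were left out in turn, the replicate number entered as a block, Ballgown's own model was fitted, the prior had no trend, libraries were scaled by quantiles or by median ratios, the minimum mean was 1 FPKM or dropped, and the pseudocount was 0.1. The fold change from the ratio of mean FPKM was added after the data were seen.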

Additional observations from a re-analysis of the deposited data

How the results depend on the processing

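Under the alternatives, the count of members called (2 higher, 3 lower) stayed within 1.5 times under both other scalings, with summed entries, an untrended prior, a pseudocount of 0.1 and a minimum mean of 1 FPKM. It was 1 higher and 1 lower with no filter, and 0 and 0 both with Ballgown's model and with the replicate block. Ballgown's model called 15 of 16189 entries in all and the replicate block 0, although 2782 and 3545 entries and 5 and 8 members had an unadjusted p under 0.05. With an HCC827/GR library left out, 3.02% to 5.94% of all entries were called, and 0 to 1 members were called higher and 1 lower. Past the study's thresholds there were 0 to 1 members higher and 1 lower. The latter count upward was 2 with a pseudocount of 0.1 and 2 with the ratio of mean FPKM. In the other lists (10 higher, 5 lower) the counts were 0 and 0 with Ballgown's model and with the replicate block. There were 3 lower with a minimum mean of 1 FPKM, and 4 to 6 higher and 1 to 3 lower with an HCC827/GR library left out. Without 1 HCC827 library the other is assumed to vary like the HCC827/GR libraries.

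The direction of WNT7B turned with Ballgown's model (0.0115) and without HCC827 replicate 3, its log2 fold change running from -1.58 to 0.20 with a library left out. That of FZD6 turned with the replicate block (0.0195) and without HCC827/GR replicate 1 or 3 or HCC827 replicate 2, its range with a library left out being -0.14 to 0.11. WNT9A, WLS, FZD2, LRP5, ROR1, LGR4, ZNRF3, DKK1, CTNNB1 and TCF7L2 kept their direction under all 14 alternatives. WNT9A lost its call under 2 of them, Ballgown's model (adjusted p = 0.161) and the replicate block (adjusted p = 0.124). FZD2 lost its call under 6, ZNRF3 under 8, LRP5 under 9 and TCF7L2 under 10. The deviations of same-numbered libraries from their group means correlated at 0.0328 for replicate 2 and 0.0147 for replicate 3. With 2 HCC827 libraries their deviations mirror each other, so these are not 2 separate checks. They cannot decide whether same-numbered libraries are pairs, and the main fit did not treat them as pairs. The cause of the changes under the alternatives was not tested. With no read counts, the precision of low FPKM values cannot be given.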
